A study of Mus musculus with 29 samples.

Results

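Histone H3 acetylated at lysine 27 (H3K27ac) was mapped by CUT&RUN in microglia (brain macrophages) sorted from adult wild-type (WT) and IRF8 knockout (IRF8KO, below KO) mice. The regions described here are the H3K27ac regions of WT microglia that had no IRF8 peak and were not found in KO microglia. They were chosen in 3 steps from the authors' peak lists. A WT region was a merged stretch with a peak in both WT H3K27ac libraries, which gave 36697 regions. A region was IRF8-free when none of the 3 adult IRF8 libraries had a peak sharing at least 1 bp with it, and lost when neither of the 2 KO H3K27ac libraries had one. The regions that were both IRF8-free and lost numbered 7849, or 21.4% of the WT regions. The other IRF8-free regions, 9165 that had a KO peak, are called kept IRF8-free regions and are the main comparison. A further 4642 lost regions and 15041 kept regions had an adult IRF8 peak. Lost means that the authors' caller listed no peak; it is not a measurement of zero acetylation.

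The WT and IRF8KO strains supplied H3K27ac, H3K4me1 and PU.1, with 2 libraries per target and genotype, from animals whose age is given as 3 months. IRF8 itself was mapped with an antibody to GFP in another strain, IRF8-EGFP, in adult microglia (3 libraries, with no age in months given for this strain), in microglia of postnatal day 9 (P9, 4 libraries) and day 14 (P14, 3 libraries), and in peritoneal macrophages (3 libraries). The peritoneal libraries are so named by their titles, while their source label names sorted microglia; the titles were followed. IRF8 absence and H3K27ac loss were therefore read in different strains. All samples were female. The KO H3K27ac libraries were 2 of 3 that were made, per the labels. The labels do not say whether libraries came from separate animals, so the spread between them may be technical. The allele of the knockout is not described beyond its name.

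H3K27ac marks active enhancers and promoters, and H3K4me1 marks enhancers whether or not they are acetylated. PU.1 is the ETS-family factor that opens many enhancers of macrophages and microglia. IRF8 is an interferon regulatory factor that binds DNA weakly alone and joins PU.1 on composite ETS-IRF sites, or AP-1 factors on other sites. It is needed for normal microglia.

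The libraries set limits on the selection. The WT H3K27ac libraries held 20.2 and 15.4 M (mega) fragments and listed 72354 and 72875 regions. KO replicate 1 held 14.7 M (mega) fragments and listed 88400 regions, and KO replicate 2 held 8.57 M and listed 31524. Of the kept IRF8-free regions, 93.9% had a peak in KO replicate 1 and 28.4% in KO replicate 2, so replicate 1 nearly alone decided which regions were lost. Without KO replicate 1 the lost IRF8-free share was 39.3% of WT regions, and without replicate 2 it was 22.9%. It was 50.5% or 44.3% where 1 WT library sufficed (without WT replicate 1 or 2), and 13.1% with all 4 H3K27ac lists cut to the same length. The adult IRF8 libraries held 7.51, 24.7 and 7.25 M fragments. The H3K4me1 libraries held 14.5 and 14.1 M in WT and 15.8 and 23.9 M in KO. They listed 104818 and 129859 regions in WT and 113370 and 189351 in KO. The PU.1 libraries held 8.95 and 17.3 M in WT and 13.6 and 13.3 M in KO. They listed 14057 and 9490 regions in WT and 10182 and 12509 in KO. One adult IgG control served the peak calls of adult IRF8, of both histone marks and of PU.1 replicate 1 in both genotypes, per the file headers. Of the genes listed as homeostatic microglia markers, all 30 had a WT H3K27ac region, against 3 of 16 neuron, 7 of 12 astrocyte, 6 of 14 oligodendrocyte-lineage and 5 of 12 endothelial and mural genes.

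The windows below show 6 of the lost IRF8-free regions: the strongest one, 2 more that like it had PU.1 in both WT and neither KO library, one of the 10 strongest shown for its repeated ETS letters, the strongest more than 50 kb from every annotated transcription start, and the strongest nearest Sall1. Each is 300 bases centred on a WT H3K27ac summit, read 5′ to 3′ from the mm10 (GRCm38.p6) reference of RefSeq. Capitals mark the ETS core GGAAGT, or its complement ACTTCC, and in the Gcfc2 window the C/EBP letters TTGCNNAA.
Naaladl2 intron, chr3:25053425-25053724, plus strand: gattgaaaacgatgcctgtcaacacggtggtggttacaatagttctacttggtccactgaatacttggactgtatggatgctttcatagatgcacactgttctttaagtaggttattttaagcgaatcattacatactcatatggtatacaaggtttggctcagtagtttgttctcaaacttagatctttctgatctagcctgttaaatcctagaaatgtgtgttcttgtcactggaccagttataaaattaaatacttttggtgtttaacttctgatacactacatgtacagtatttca
Intergenic, nearest Gcfc2, chr6:81618103-81618402, plus strand: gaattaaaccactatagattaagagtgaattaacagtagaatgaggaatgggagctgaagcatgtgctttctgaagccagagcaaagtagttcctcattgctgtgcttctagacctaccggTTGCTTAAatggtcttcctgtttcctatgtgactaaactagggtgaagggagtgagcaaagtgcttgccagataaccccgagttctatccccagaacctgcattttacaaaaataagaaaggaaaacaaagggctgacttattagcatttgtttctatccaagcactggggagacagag
4930471E19Rik intron, nearest Msrb3, chr10:120674616-120674915, plus strand: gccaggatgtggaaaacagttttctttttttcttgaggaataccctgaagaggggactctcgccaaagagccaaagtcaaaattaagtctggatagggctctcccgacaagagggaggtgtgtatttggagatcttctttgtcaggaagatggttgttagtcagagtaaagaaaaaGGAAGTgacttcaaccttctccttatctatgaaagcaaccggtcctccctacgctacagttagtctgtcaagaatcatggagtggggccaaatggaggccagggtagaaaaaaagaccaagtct
Intergenic, nearest Slc4a7, chr14:14673068-14673367, plus strand: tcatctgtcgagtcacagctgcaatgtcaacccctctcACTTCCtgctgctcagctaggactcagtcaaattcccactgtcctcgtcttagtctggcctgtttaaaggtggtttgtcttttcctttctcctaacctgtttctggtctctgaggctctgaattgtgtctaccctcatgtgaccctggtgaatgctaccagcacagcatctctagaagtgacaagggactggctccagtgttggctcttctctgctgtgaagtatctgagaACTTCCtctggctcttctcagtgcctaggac
Intergenic, nearest Khdrbs3, chr15:69614709-69615008, plus strand: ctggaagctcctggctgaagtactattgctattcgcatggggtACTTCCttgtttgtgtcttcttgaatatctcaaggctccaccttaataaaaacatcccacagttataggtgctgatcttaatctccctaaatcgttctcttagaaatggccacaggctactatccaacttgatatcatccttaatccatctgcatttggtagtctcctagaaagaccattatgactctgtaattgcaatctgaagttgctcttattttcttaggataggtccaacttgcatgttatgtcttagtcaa
Intergenic, nearest Sall1, chr8:89163235-89163534, plus strand: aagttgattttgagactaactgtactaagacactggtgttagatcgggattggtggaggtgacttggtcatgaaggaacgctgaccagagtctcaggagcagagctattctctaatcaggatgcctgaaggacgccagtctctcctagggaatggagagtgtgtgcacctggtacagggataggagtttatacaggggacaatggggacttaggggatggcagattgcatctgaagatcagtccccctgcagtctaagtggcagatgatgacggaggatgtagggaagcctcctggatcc
The Slc4a7 and Khdrbs3 regions, whose windows hold the ETS letters, and the Sall1 region had no PU.1 peak in any of the 4 PU.1 libraries. None of these windows lies in an annotated UTR. The Naaladl2 and Sall1 windows hold none of the 10 letter patterns searched. A match to letters is not a measured binding site.

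The lost IRF8-free regions were narrow and weak. Their median width was 1102 bp, against 1588 bp for kept IRF8-free regions, 1400 bp for lost regions with IRF8 and 2401 bp for kept regions with IRF8. Strength was taken as the percentile of a peak's −log10 p within its own list, averaged over both WT libraries, and the medians in the same order were 45.0, 59.1, 63.6 and 82.9. The authors' fold enrichment over control had a median of 4.14 and 4.58 in the WT libraries at lost IRF8-free regions and of 4.93 and 5.23 at kept ones. Only 28.1% of the lost IRF8-free regions reached a −log10 q of 5 in both WT libraries, against 50.8% of kept IRF8-free regions. These values come from the libraries that chose the regions and are given as description.

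**Figure D1:**
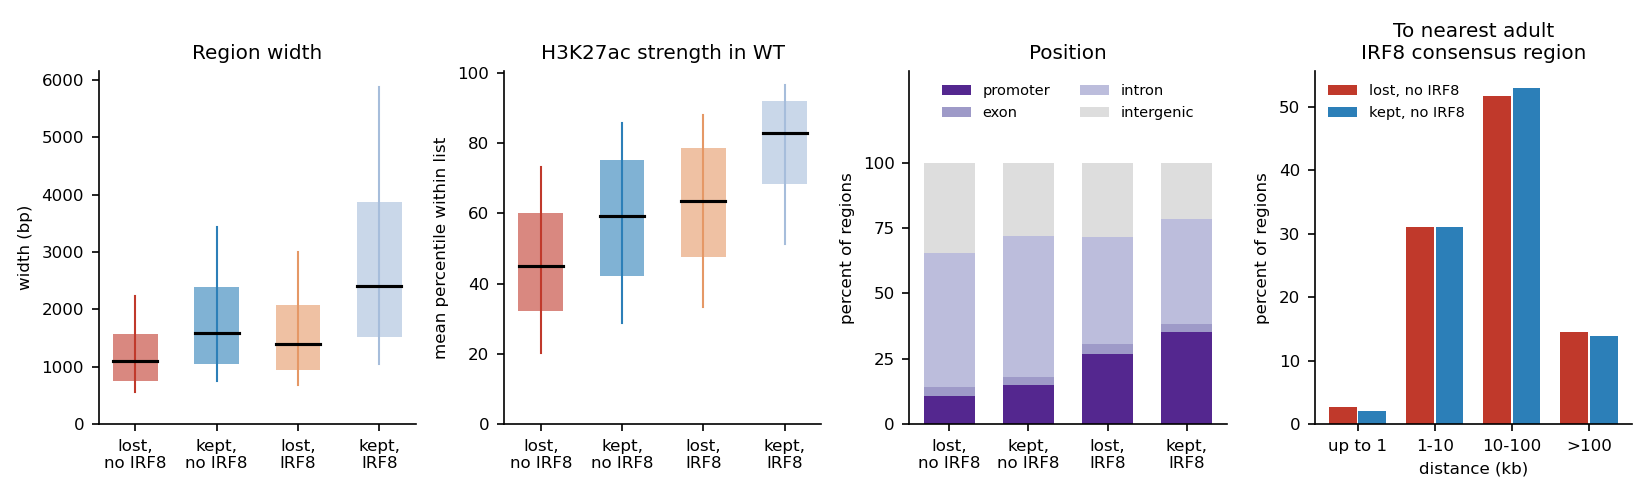
Width, WT strength, position and distance to the nearest adult IRF8 consensus region for the 4 kinds of WT H3K27ac region (lost or kept in KO, without or with an adult IRF8 peak). Boxes span the 25th to 75th percentile, thin lines the 10th to 90th and black bars the median; lost IRF8-free regions have the lowest median width (1102 bp) and strength (45.0), while their distances to IRF8 nearly match those of kept IRF8-free regions.

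Loss was tied to strength. Among IRF8-free regions, 70.3% of those at percentiles 0 to 10 were lost, and 13.3% of those at percentiles 90 to 100. The overall share was 46.1% of 17014 IRF8-free regions, and 34.0% of all WT regions were lost. The same absence can be read between WT libraries. Of the IRF8-free peak regions in WT replicate 1, 61.0% were absent from WT replicate 2, 68.7% from KO replicate 1 and 92.2% from KO replicate 2. At percentiles 90 to 100 of WT replicate 1 these shares were 5.60%, 22.4% and 65.3%. Read from WT replicate 2, the peaks of percentiles 90 to 100 were absent from WT replicate 1 at 3.69%, from KO replicate 1 at 27.4% and from KO replicate 2 at 65.3%. Over all strengths, 60.1% of the peaks of WT replicate 2 were absent from WT replicate 1 and 74.6% from KO replicate 1. These shares come from the H3K27ac lists that chose the regions, which differ in length and depth, and are given as description. The part that depth has in the loss was not tested.

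Most lost IRF8-free regions lay away from promoters. Within 1 kb of an annotated transcription start lay 855 (10.9%), in exons 260 (3.31%), in introns 4032 (51.4%) and between genes 2702 (34.4%). Kept IRF8-free regions had 14.9% at promoters and 28.2% between genes, and lost regions with IRF8 had 26.8% at promoters. A total of 1108 (14.1%) were more than 50 kb from every annotated start of any gene type, against 10.6% of kept IRF8-free regions. The strongest promoter region lay at chr4:111414593-111417414, 796 bp from the start of Bend5, with fold enrichments of 8.66 and 7.59 in the WT libraries. The strongest of these distal regions lay at chr15:69612290-69615918, 684036 bp from the nearest protein-coding start, that of Khdrbs3, with fold enrichments of 8.94 and 14.1.

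The distances to IRF8 were close to those of kept regions. The median distance to the nearest adult IRF8 consensus region (a merged region with peaks in at least 2 of the 3 libraries) was 19709 bp for lost and 20386 bp for kept IRF8-free regions. Of the lost regions, 215 (2.74%) lay within 1 kb of such a region, 2435 between 1 and 10 kb, 4063 between 10 and 100 kb, and 1136 (14.5%) farther than 100 kb. The corresponding shares of kept regions were 2.04% within 1 kb and 13.8% beyond 100 kb. At the edge of the rule, 31 lost IRF8-free regions had an adult IRF8 peak of any library within 100 bp and 498 (6.34%) within 1 kb. A KO H3K27ac peak lay within 100 bp of 178 and within 1 kb of 1695 (21.6%). On the other side, 220 kept IRF8-free regions were kept by KO peaks that covered at most 100 bp of them.

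H3K4me1 was listed at fewer of the lost than of the kept IRF8-free regions, and at fewest in KO. In the WT libraries 75.3% and 70.4% of lost IRF8-free regions had an H3K4me1 peak, and in the KO libraries 60.7% and 66.3%. Both KO values lay below both WT values. At kept IRF8-free regions the WT values were 88.7% and 85.8% and the KO values 85.1% and 88.0%, which overlapped. Lost regions with IRF8 had a WT mean of 93.3% ± 3.21 (SD, n = 2) and a KO mean of 78.6% ± 4.13. H3K4me1 in both WT and neither KO library was found at 600 lost IRF8-free regions (7.64%), against 413 (8.90%) of lost regions with IRF8, 199 (2.17%) of kept IRF8-free regions and 3.55% of all WT regions. Read over the regions with H3K4me1 in both WT libraries, these were 12.3% of 4891 lost and 2.68% of 7415 kept IRF8-free regions, 10.1% of 4108 lost regions with IRF8, and 4.25% of all WT regions. The opposite pattern, both KO and neither WT, was found at 203 (2.59%). Where 1 WT H3K27ac library sufficed, the order of the genotypes turned: H3K4me1 in any WT and in any KO library was found at 54.7% and 57.4% of the lost IRF8-free regions without WT replicate 1, and at 67.7% and 68.1% without WT replicate 2. The KO minus WT difference of the mean shares at lost IRF8-free regions was −9.35 percentage points, with an exact two-sided permutation p of 0.33, the smallest that 2 against 2 libraries allow.

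The H3K4me1 difference was widest where H3K27ac had been strong. Among the 79 lost IRF8-free regions at percentiles 90 to 100, the WT libraries had H3K4me1 at 100% and 97.5% and the KO libraries at 69.6% and 78.5%. The 515 kept IRF8-free regions of that bin had 99.6% and 98.6% in WT and 97.3% and 97.5% in KO. At percentiles 80 to 90, 328 lost regions had 94.8% and 91.8% in WT and 72.9% and 78.0% in KO. At percentiles 0 to 10, 187 lost regions had 64.2% and 50.8% in WT and 52.9% and 57.2% in KO, with overlapping genotypes. Choosing the lost regions from KO replicate 1 alone gave 74.6% and 79.4% in KO at percentiles of at least 80 (456 regions), and from KO replicate 2 alone 87.7% and 90.2% (1301 regions), against WT values of 96.3% and 93.2%, and of 98.0% and 95.6%. That grouping was set after the values were seen.

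**Figure D2:**
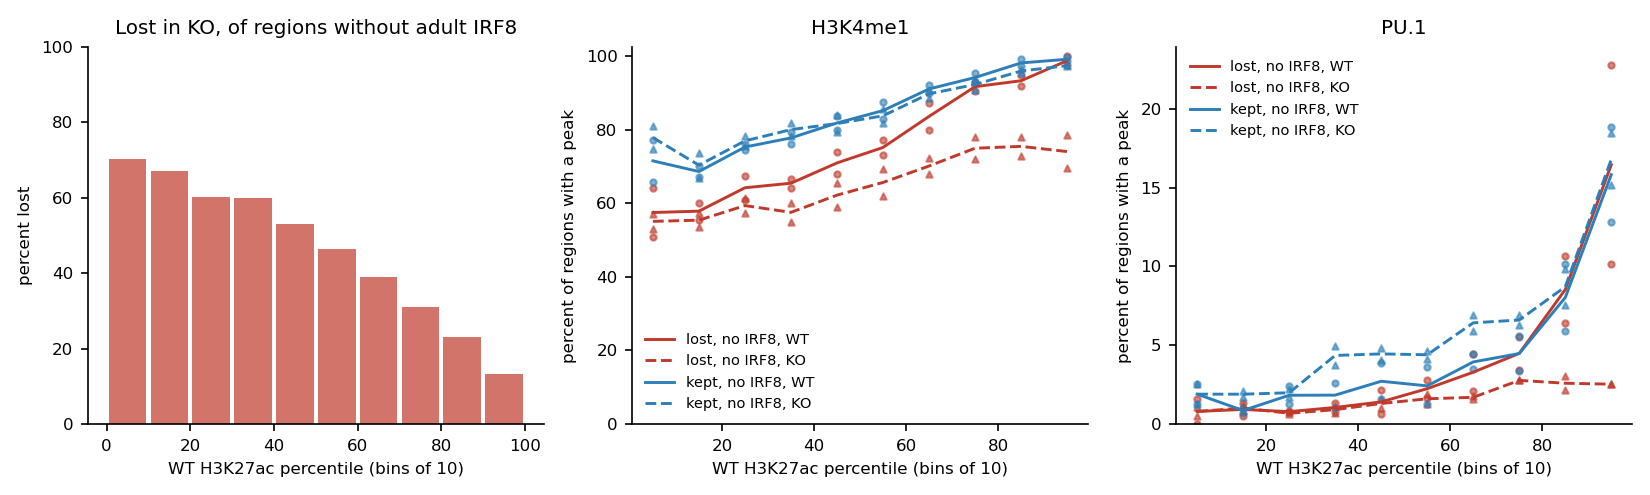
Left, percent of IRF8-free WT H3K27ac regions lost in KO by WT strength percentile; middle and right, percent of lost (red) and kept (blue) IRF8-free regions with an H3K4me1 or PU.1 peak. Points are single libraries and lines their means (solid WT, dashed KO); at percentiles 90 to 100 the KO libraries had H3K4me1 at 69.6% and 78.5% of lost regions, below every other group.

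PU.1 was listed at few of these regions. A PU.1 peak was found at 2.98% and 1.55% of lost IRF8-free regions in the WT libraries and at 1.24% and 1.57% in the KO libraries, which overlap. Any WT library had one at 3.98%, a share that was 7.999% for regions whose H3K27ac peaks reached a −log10 q of 5 and 9.03% with H3K27ac lists of equal length. Kept IRF8-free regions had 5.42% and 3.14% in WT and 6.02% and 5.98% in KO. In all, 7391 of the 7849 (94.2%) had no PU.1 peak in any of the 4 libraries, against 85.5% of kept IRF8-free regions and 65.2% of all WT regions. Regions with PU.1 in both WT libraries numbered 44, and 27 of these had none in either KO library. In the other direction, 21 had PU.1 in both KO libraries, and 9 of these had none in either WT library. Of regions taken for PU.1 in both WT libraries, a choice that favours a lower KO share, those without it in KO made up 61.4%, against 314 of 609 (51.6%) lost regions with IRF8, 46 of 103 (44.7%) kept IRF8-free regions and 22.5% of all WT regions with PU.1 in both WT libraries. These counts are small, and PU.1 in both WT and neither KO library held for 2.96% of all WT regions and for 0.344% of lost IRF8-free regions.

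At strong lost regions PU.1 was listed less often in both KO libraries than in both WT libraries. At percentiles 90 to 100 the WT libraries had PU.1 at 22.8% and 10.1% of lost regions and at 18.8% and 12.8% of kept regions. In KO the values were 2.53% and 2.53% at lost regions and 18.4% and 15.1% at kept ones. At percentiles 80 to 90 lost regions had 10.7% and 6.40% in WT and 2.13% and 3.05% in KO, and kept regions 10.1% and 5.93% in WT and 9.85% and 7.57% in KO. At the kept regions of both bins the genotypes overlapped. The upper 2 bins together held 407 lost regions, with PU.1 at 13.0% and 7.13% in WT and 2.21% and 2.95% in KO. When loss was read without KO H3K27ac replicate 1, 1301 regions qualified and the KO shares were 5.69% and 5.30%, against 12.1% and 7.61% in WT. Without KO H3K27ac replicate 2 the KO shares were 2.85% and 3.07%, against 12.5% and 6.36% in WT at 456 regions. In the upper 2 bins the mean lost-minus-kept difference in PU.1 was −0.45 percentage points in WT and −8.72 in KO, with an exact two-sided permutation p of 0.33 for the difference between them.

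IRF8 at P14 and in peritoneal macrophages was listed at a smaller share of lost than of kept IRF8-free regions in each library, while at P9 both shares were close to 0. At P9 the 4 libraries had a peak at 0.00956% ± 0.0122 (SD, n = 4) of lost IRF8-free regions, at P14 the 3 libraries at 1.37% ± 1.36, and in peritoneal macrophages the 3 libraries at 3.47% ± 2.01. The peritoneal libraries had peaks at 5.38%, 3.66% and 1.38% of lost and at 13.1%, 9.49% and 2.76% of kept IRF8-free regions. The P14 libraries had peaks at 0.522%, 2.94% and 0.65% of lost and 0.731%, 5.35% and 0.884% of kept IRF8-free regions. The lost share was below the kept share in 10 of 10 libraries, with a mean difference of −1.79 percentage points and an exact two-sided sign-flip p of 0.00195, the smallest that 10 libraries allow, and 0.00586 adjusted over the 3 targets. With kept regions weighted to the strength of the lost ones, the difference was lower in 8 of 10 libraries (mean −1.23 points, exact p = 0.00781). That mean came mostly from the peritoneal libraries, whose mean difference went from −4.98 to −3.75 points with the weighting, while that of P14 went from −0.95 to −0.33 and that of P9 from −0.023 to −0.010. For PU.1 the lost share was lower in 4 of 4 libraries, with a mean difference of −3.31 points, and for H3K4me1 in 4 of 4, with a mean difference of −18.7 points; the exact p of both was 0.13, the smallest that 4 libraries allow. With the weighting by strength the PU.1 difference was −1.90 points, from −2.01 to −0.61 in WT and from −4.60 to −3.18 in KO, and the H3K4me1 difference was −14.4 points, from −14.4 to −9.66 in WT and from −23.1 to −19.2 in KO. None of the P9 libraries had a peak at more than 2 lost or 4 kept IRF8-free regions. Without them, a choice made after seeing the data, the lost share was lower in 6 of 6 libraries with a mean difference of −2.96 percentage points, but the exact p was 0.0313, the smallest that 6 libraries allow, and the adjusted p of 0.0938 missed the threshold of 0.05. With H3K27ac lists of equal length the adjusted p was 0.105 (mean difference −2.14 points, exact p = 0.0352), so the call was lost under both choices. By their titles, replicates 1 and 2 of the adult and the peritoneal IRF8 libraries belong to batch 1 and replicate 3 to batch 2, and the test treats all libraries as independent. Within the peritoneal macrophages the lost share was the lower in both libraries of batch 1 and in the library of batch 2. The IRF8 libraries share their strain, and those of one age or cell type share their control.

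**Figure D3:**
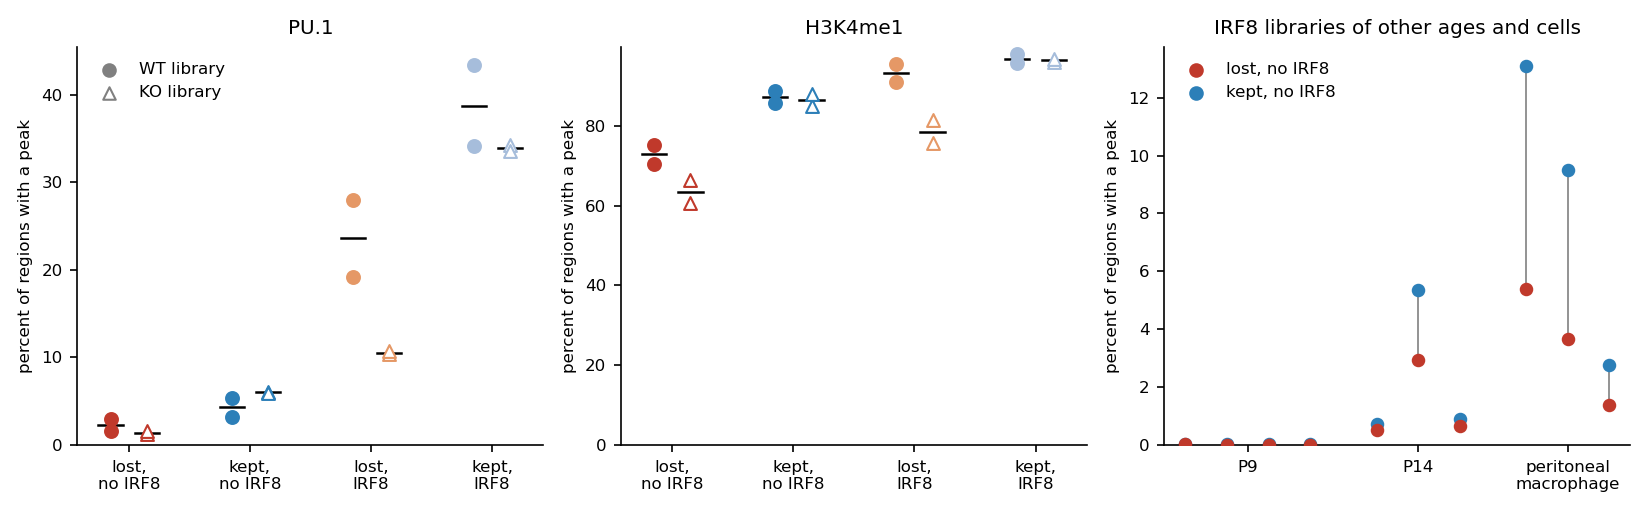
Percent of regions with a PU.1 or H3K4me1 peak in each WT (filled circle) and KO (open triangle) library for the 4 kinds of WT H3K27ac region, with the mean as a bar, and percent with an IRF8 peak in each P9, P14 and peritoneal macrophage library. At lost IRF8-free regions both H3K4me1 KO values (60.7% and 66.3%) lie below both WT values, and in the IRF8 panel each red point lies below the blue point of its library.

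The strongest single region lay in an intron of Naaladl2 at chr3:25050464-25055547, 5084 bp wide. Its fold enrichments in WT were 9.93 and 17.3, at a mean percentile of 98.9. It had PU.1 peaks in both WT libraries (fold 5.55 and 3.74) and H3K4me1 peaks in both (fold 7.03 and 3.91), and neither mark was listed in either KO library. The nearest adult IRF8 consensus region was 2025045 bp away. The region nearest Gcfc2, chr6:81617129-81619736, had the same pattern, with WT PU.1 folds of 7.06 and 3.45 and the nearest IRF8 consensus region 168292 bp away. A region in an intron of Drosha, which encodes the nuclease that starts microRNA processing, lay at chr15:12864699-12867306 and had WT folds of 12.8 and 10.1; PU.1 was listed in both WT and neither KO library, and H3K4me1 in 1 WT and both KO libraries. Others of the 10 strongest lay nearest Chil1, Slc4a7, Aplnr, Isx, Khdrbs3, Rab38 and Zeb1. Of the 10, 2 had PU.1 in both WT and neither KO library, and 1 had H3K4me1 in both WT and neither KO library. The 10 strongest with PU.1 in both WT and neither KO library had WT percentiles of 83.8 to 98.9; beside the 3 above they lay nearest Gpr153, Msrb3, Pld5, Eogt, Gm11096, Foxk1 and Glul, and 8 of the 10 had H3K4me1 in both KO libraries. The 5 strongest with H3K4me1 in both WT and neither KO library had percentiles of 93.4 to 98.9; beside Naaladl2 and Gcfc2 they lay nearest Ankrd46, A530064D06Rik and Cenpc1.

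Of the 10293 protein-coding genes nearest to at least 1 WT region, 3625 were nearest to a lost IRF8-free region. Of these, 2231 had exactly 1 and 306 had 5 or more. At 2717 of these genes another WT region did have an adult IRF8 peak, and 693 genes had lost IRF8-free regions alone. Of the runs of consecutive WT regions that were all lost and IRF8-free, 4295 were single regions. The longest held 15 regions at Magi1 (chr6:94175719-94277700), which encodes a scaffold protein of cell junctions, and the next 13 upstream of Sall1 (chr8:89413772-89549350). Runs of 11 lay at Kcnma1, Khdrbs3 and Gm11232.

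The genes with most lost IRF8-free regions differed in how complete the loss was. 4931417E11Rik had 44 among 55 WT regions and Sall1, which encodes a transcription factor that maintains microglia identity, had 36 of 55. Near Sall1, 54 of 55 regions were lost, since 18 more with IRF8 were lost, no IRF8-free region was kept and 1 with IRF8 was kept. Magi1 had 35 of 53, and the axon guidance receptor gene Nrp2 had 35 of 73. Marcks, which encodes an actin-binding protein of microglia, had 32 of 110, with 57 kept IRF8-free regions, and Zeb2, a transcriptional repressor gene of myeloid cells, had 28 of 97 with 49 kept. Nearest means nearest start, and these regions lay up to 598114 bp from Sall1 and 1416348 bp from Zeb2.

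H3K4me1 at these clusters separated the genes further. At the 36 regions of Sall1 it was listed at 27 and 25 in the WT libraries and at 4 and 5 in the KO libraries. At Csmd3, which encodes a large membrane protein, 22 and 16 of 30 had it in WT and 5 and 2 in KO, and at Magi1 33 and 30 of 35 in WT and 11 and 18 in KO. At Rbfox1, a splicing factor gene, the values were 22 and 17 of 33 in WT and 15 and 23 in KO, and at Cited2, a transcriptional coregulator gene, 10 and 10 of 33 in WT and 10 and 12 in KO. Of the 10 genes with most lost IRF8-free regions, 6 had both KO libraries below both WT libraries: Sall1, Csmd3, Magi1, Marcks (17 and 17 of 32 in WT, 6 and 9 in KO), Gm11232 (17 and 16 of 34, 7 and 11) and 4931417E11Rik (29 and 18 of 44, 5 and 11). The genotypes overlapped at the other 4, which were Rbfox1, Cited2, Nrp2 (19 and 14 of 35 in WT, 7 and 15 in KO) and Zeb2 (16 and 11 of 28, 12 and 14). PU.1 was listed in a WT library at 1 of the 36 Sall1 regions and at 4 of the 35 Magi1 regions.

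**Figure D4:**
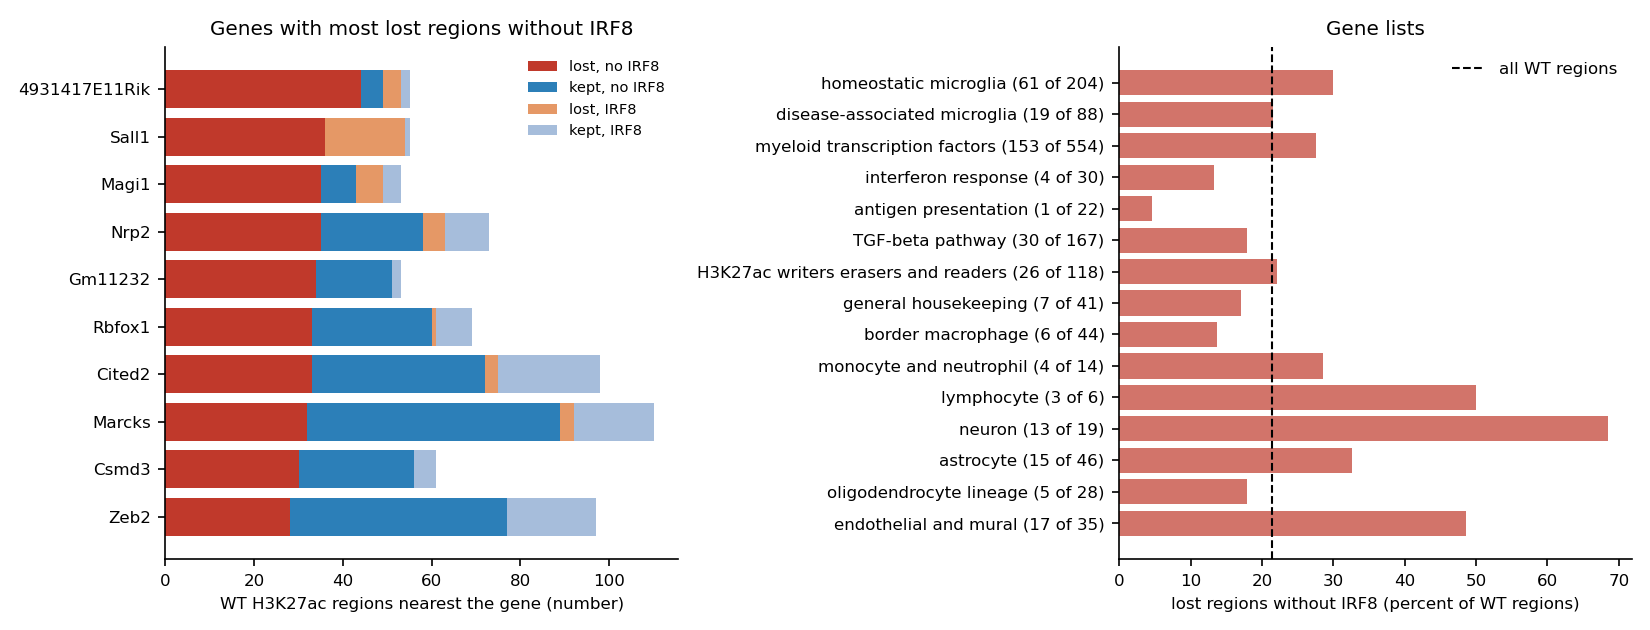
Left, number of WT H3K27ac regions nearest each of the 10 genes with most lost IRF8-free regions, split by loss and adult IRF8; right, percent of the WT regions of each gene list that are lost and IRF8-free (counts in brackets), with 21.4% of all WT regions as the dashed line. Near Sall1 the bar holds no kept IRF8-free region. The list totals include regions with an adult IRF8 peak.

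Lists of genes were set beside the 21.4% of all WT regions. The lists count regions nearest to a gene or inside it. Regions with an adult IRF8 peak count in the total but cannot be lost and IRF8-free by the rule. A list with many of them therefore has a lower share. The lost share of each list's IRF8-free regions is also given, against 46.1% of all IRF8-free regions. For homeostatic microglia genes 61 of 204 regions (29.9%) were lost and IRF8-free, at 15 of 30 genes. However, 36 were those of Sall1, and without it 25 of 149 (16.8%) remained. Of the 83 IRF8-free regions of this list 73.5% were lost. Sall1 had no kept IRF8-free region, so without it 25 lost and 22 kept IRF8-free regions remained. Among the WT regions of P2ry12, the purine receptor that guides microglial processes, 2 of 8 were lost and IRF8-free. The fractalkine receptor gene Cx3cr1 had 3 of 11. Rhob, a small GTPase gene, had 5 of 16, and the lipid sensor gene Trem2 had 2 of 4. C1qa, C1qb, C1qc and Tyrobp had none, and all their regions were kept and carried IRF8.

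For disease-associated microglia genes the share was 19 of 88 (21.6%), at 10 of 20 genes, near the share of all regions. Both regions of Apoe, the lipid carrier gene, were lost and IRF8-free. The stronger, chr7:19698119-19698629, lay at the Apoe promoter with WT folds of 5.55 and 5.23. H3K4me1 was listed there in both WT libraries and in 1 KO library. Spp1, the osteopontin gene, had 3 of 4, Axl, a receptor kinase gene active in the clearing of dying cells, had 3 of 6, and the cathepsin gene Ctsl had 3 of 8. Myeloid transcription factor genes had 153 of 554 (27.6%), at 19 of 30 genes, and 117 of 499 (23.4%) without Sall1, which is on both lists. Mef2c had 21 of 75, Klf6 19 of 78, Maf 16 of 50, Runx1 11 of 31, Jun 10 of 35, Klf4 8 of 30 and Smad3 6 of 22. The transforming growth factor beta list had 30 of 167 (18.0%), of which 9 were at the receptor gene Tgfbr2. Of the IRF8-free regions alone, 45.2% of 42 were lost for disease-associated genes and 47.8% of 320 for myeloid transcription factor genes. For the transforming growth factor beta list it was 41.1% of 73.

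Other lists gave the following counts. Interferon response genes had 4 of 30 regions and antigen presentation genes 1 of 22, at Cd86. Genes for enzymes and readers of H3K27 acetylation had 26 of 118 (22.0%), 16 of them at the deacetylase gene Hdac9, and housekeeping genes had 7 of 41. Border macrophage genes had 6 of 44. Among markers of other brain cells, neuron genes had 13 of 19, all at Syt1, astrocyte genes 15 of 46, endothelial and mural genes 17 of 35 and oligodendrocyte genes 5 of 28. Within these lists the counts varied: the astrocyte genes Aqp4 (a water channel) had 4 of 4, Slc1a3 (a glutamate transporter) 5 of 18 and Slc4a4 (a bicarbonate transporter) 0 of 5, and the endothelial genes Cdh5 (a cadherin) 7 of 11 and Pecam1 (an adhesion protein) 2 of 9. Of all WT regions 21.4% were lost and IRF8-free. Monocyte and neutrophil genes had 4 of 14 and lymphocyte genes 3 of 6. Of IRF8-free regions alone, the lost share was 50% of 8 for interferon response and 20% of 5 for antigen presentation genes. It was 37.1% of 70 for acetylation, 53.8% of 13 for housekeeping and 31.6% of 19 for border macrophage genes. For neuron genes it was 86.7% of 15, astrocyte 62.5% of 24, endothelial and mural 85% of 20 and oligodendrocyte 50% of 10. Monocyte and neutrophil genes had 80% of 5 and lymphocyte genes 75% of 4. Regions near markers of other cells were thus lost too, and the part that cells other than microglia have in the lost regions was not tested.

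Sequence differed by small amounts in percentage points between lost and kept IRF8-free regions, and these differences were not tested. In the 300-bp windows around the summit, searched on both strands, the ETS core was found in 26.6% of lost IRF8-free windows, 28.7% of kept IRF8-free windows and 31.0% of all. The composite ETS-IRF motif was found in 3.63% of lost and 3.24% of kept IRF8-free windows, against 8.34% of lost regions with IRF8 and 4.94% of all. The AP-1 letters TGANTCA were found in 8.87% of lost and 10.9% of kept IRF8-free windows, against 9.40% of all, and the GC box GGGCGG in 5.59% and 6.73%, against 11.9% of all. The MITF E-box CACGTG was in 3.08% of lost and 3.94% of kept IRF8-free windows, against 4.22% of all. RUNX letters were in 21.1% and 21.4%, C/EBP letters in 13.5% and 14.1%, and interferon-response-like letters in 4.60% and 4.94%. The median GC content was 44.3% in lost and 45.0% in kept IRF8-free windows. Among the lost regions the ETS core was in 20 of 44 (45.5%) with PU.1 in both WT libraries. It was in 34.7% of those with PU.1 in 1, and in 26.2% of those with none. Of the 44, the 27 with PU.1 in neither KO library had it in 9 (33.3%).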

How the data were processed

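CUT&RUN peak lists of 25 libraries were used, and 4 IgG controls entered only through the authors' calls. Per the file headers, the authors called peaks in each library separately with MACS (2.2.7.1 for IRF8 and PU.1, 2.2.6 for histone marks) on paired-end fragments with duplicates kept. The threshold was q 0.01 (0.05 for PU.1 replicate 2 of both genotypes, which also had another control) with a maximum gap of 640 bp; H3K4me1 was called as broad regions at p 0.01 with a minimum length of 1000 bp. The submitters' processing notes name Trim Galore, Bowtie2, deepTools, MACS2 and mm10. Per the file headers, deposited values are pileup (signal), −log10 p-value and −log10 q-value, and fold enrichment (ratio) over the control; these are the authors' own and served for description, ranking and filtering inside each list.

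From these, regions repeated per summit were used once, overlaps needed 1 bp, and genes came from GENCODE vM21 on GRCm38.p6. All peaks lay within that assembly's chromosome lengths. Python 3.11.15, pandas 2.3.3, NumPy 2.4.6, SciPy 1.17.1 and samtools 1.23.1 were used; interval functions and the sign-flip test were tested on simulated data. The regions, gene lists and tests were chosen with earlier results of these data known. Shares of lost and kept IRF8-free regions were compared over libraries by exact two-sided sign-flip tests with Benjamini-Hochberg adjustment over 3 targets; genotype differences were given by exact tests of 2 against 2 libraries, added after seeing the data. Named were the 10 strongest regions, the 10 genes with most regions, list genes with a region, the 10 strongest with PU.1 and the 5 strongest with H3K4me1 in both WT and neither KO library, and the strongest promoter and distal regions; the report prints a selection of these, and some named items are not reported here. Peak lists give no counts per region, so precision is limited by the number of libraries. Alternative thresholds, overlap rules, list lengths and left-out libraries were tried.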

Additional observations from a re-analysis of the deposited data

How the results depend on the processing

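The share of WT H3K27ac regions that were lost and IRF8-free was 21.4%. It was 17.4% with H3K27ac peaks of −log10 q of at least 5, 26.1% with adult IRF8 peaks of −log10 p of at least 10, 31.3% where KO and IRF8 peaks had to cover 25% of a region, and 26.6% with IRF8 consensus regions in place of any peak. It was 19.1% with no peak in any of the 13 IRF8 libraries, 20.03% with no adult IRF8 peak within 1 kb, 16.8% with no KO peak within 1 kb, 13.1% with H3K27ac lists of equal length, and 20.5% for regions of at least 500 bp. Leaving out 1 library gave 21.8% to 50.5%: 50.5% without WT replicate 1, 44.3% without WT replicate 2 and 39.3% without KO replicate 1.

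The share of lost IRF8-free regions with PU.1 in any WT library was 3.98% and in any KO library 2.54%. These were 7.999% and 4.95% at −log10 q of at least 5, 6.72% and 3.81% with IRF8 consensus regions, and 9.03% and 4.92% with equal H3K27ac lists; the KO share was 2.14% with PU.1 −log10 q of at least 2 and 2.17% in a 1 kb window around the summit, the last chosen after seeing the data. Leaving out 1 library gave 1.32% to 6.37% in WT and 1.09% to 4.54% in KO. For H3K4me1 the shares were 83.4% in any WT and 77.1% in any KO library. They were 94.4% and 88.9% at −log10 q of at least 5, 95.8% and 90.1% with equal H3K27ac lists, and 59.2% and 53.5% with H3K4me1 −log10 p of at least 3; the KO share was 71.0% with equal H3K4me1 lists. Leaving out 1 library gave 54.7% to 87.6% in WT and 57.4% to 84.1% in KO, and without either WT H3K27ac library the KO share was the higher (57.4% against 54.7% without replicate 1, 68.1% against 67.7% without replicate 2). The cause of these shifts was not tested.

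The lower IRF8 share of other ages and cells kept its direction in 26 of 26 alternatives and, by the p adjusted over 3 targets, its side of the threshold in 24. It lost the call with H3K27ac lists of equal length (−2.14 points, adjusted exact p = 0.105) and with only the P14 and peritoneal macrophage libraries (−2.96 points, adjusted exact p = 0.0938). The latter, a 1 kb window and weighting by strength or by width were chosen after seeing the data. Leaving out 1 library gave −2.87 to −1.13 points. WT and KO libraries share only a replicate number. With that number as a replicate block, chosen after seeing the data, the KO minus WT difference of −9.35 points in H3K4me1 at lost regions had an exact p of 0.5 in place of 0.33, as had that of −7.49 points in PU.1 at lost regions of percentile 80 and above. Over all lost regions the PU.1 difference of −0.87 points had an exact p of 1 in place of 0.67.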
